A study of Rattus norvegicus with 4 samples.

Results

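Replication fork and DNA repair genes were followed in neural progenitor cells of the rat hippocampus, dividing cells that can become neurons or glia. The members were 47 genes chosen by symbol: 25 that work at the replication fork, 14 repair genes whose expression is known to follow the cell cycle (cycling repair), and 8 repair genes that resting cells also express (constitutive repair). Of the 14217 genes named on the array, 45 were members, represented by 51 probe sets. No probe set carried the symbol of Gins2 or Fanci alone, so their expression was not analysed here. Fanca lay under the floor of log2 = 5, taken as the limit of specific signal, on all 4 arrays, which left 44 measured members, 42 of them above the floor on every array.

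The cells came from Fisher 344 rats, were used at early passage, and were kept with each agent for 4 days in N2 medium. The 4 groups were KHS101 at 5 uM, KHS101 at 1.7 uM, 1 uM retinoic acid plus forskolin, and the solvent DMSO (dimethyl sulfoxide, 0.1% in the labels' protocol). KHS101 is a small synthetic compound studied as an inducer of neuronal differentiation. Retinoic acid is the vitamin A derivative that activates nuclear receptors, and forskolin raises cyclic AMP. The labels give no forskolin concentration, and in the series design the positive control is retinoic acid alone. Each group was 1 Affymetrix array, so differences between groups have no replicate check and no p-value, and their precision is limited by the number of arrays. The labels do not say whether animals were pooled.

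Dividing cells copy their DNA at forks where a helicase opens the strands, primase and polymerase alpha lay down primers, and polymerases delta and epsilon extend them on the sliding clamp PCNA. Many fork genes, and repair genes that rescue broken or stalled forks by homologous recombination or the Fanconi pathway, are transcribed mainly around S phase under E2F transcription factors. Base excision, nucleotide excision and end-joining repair also serve cells that no longer divide, and much of their machinery is expressed throughout the cell cycle.

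All values are log2 expression values, and calls (higher or lower) needed a 2-fold difference. The 4 arrays had nearly equal distributions, with medians of 3.67 to 3.76, so a shift common to all genes would not be visible. Over all measured genes the median difference was between -0.03 and 0.00 in the 6 comparisons. Of 6 progenitor markers with a probe set, Nes, Sox2, Vim, Fabp7 and Olig2 were above the floor and Hes5 was not. The neuronal markers Dcx and Rbfox3 and the astrocyte markers Gfap, Aqp4 and Aldh1l1 were at the floor on every array. So were all 4 microglial and all 4 fibroblast markers and the endothelial Pecam1 and Cldn5. Tubb3, Map2 and S100b were above it on every array, and the endothelial Kdr only with retinoic acid plus forskolin. The oligodendrocyte markers Mbp and Sox10 were above the floor on every array, with 12.07 and 12.67 in DMSO. Mog was above it only with retinoic acid plus forskolin. For beta-actin, the 3′ control probe set exceeded the 5′ one, a measure of RNA degradation or incomplete copying, by 1.54 with KHS101 at 5 uM, 1.40 at 1.7 uM, 1.37 with retinoic acid plus forskolin and 1.26 in DMSO. For hexokinase it was 0.96 with KHS101 at 5 uM, 0.80 at 1.7 uM, 0.66 with retinoic acid plus forskolin and 0.69 in DMSO, and for Gapdh between -0.16 and -0.11. The part of these differences in the members' values was not tested.

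**Figure D1:**
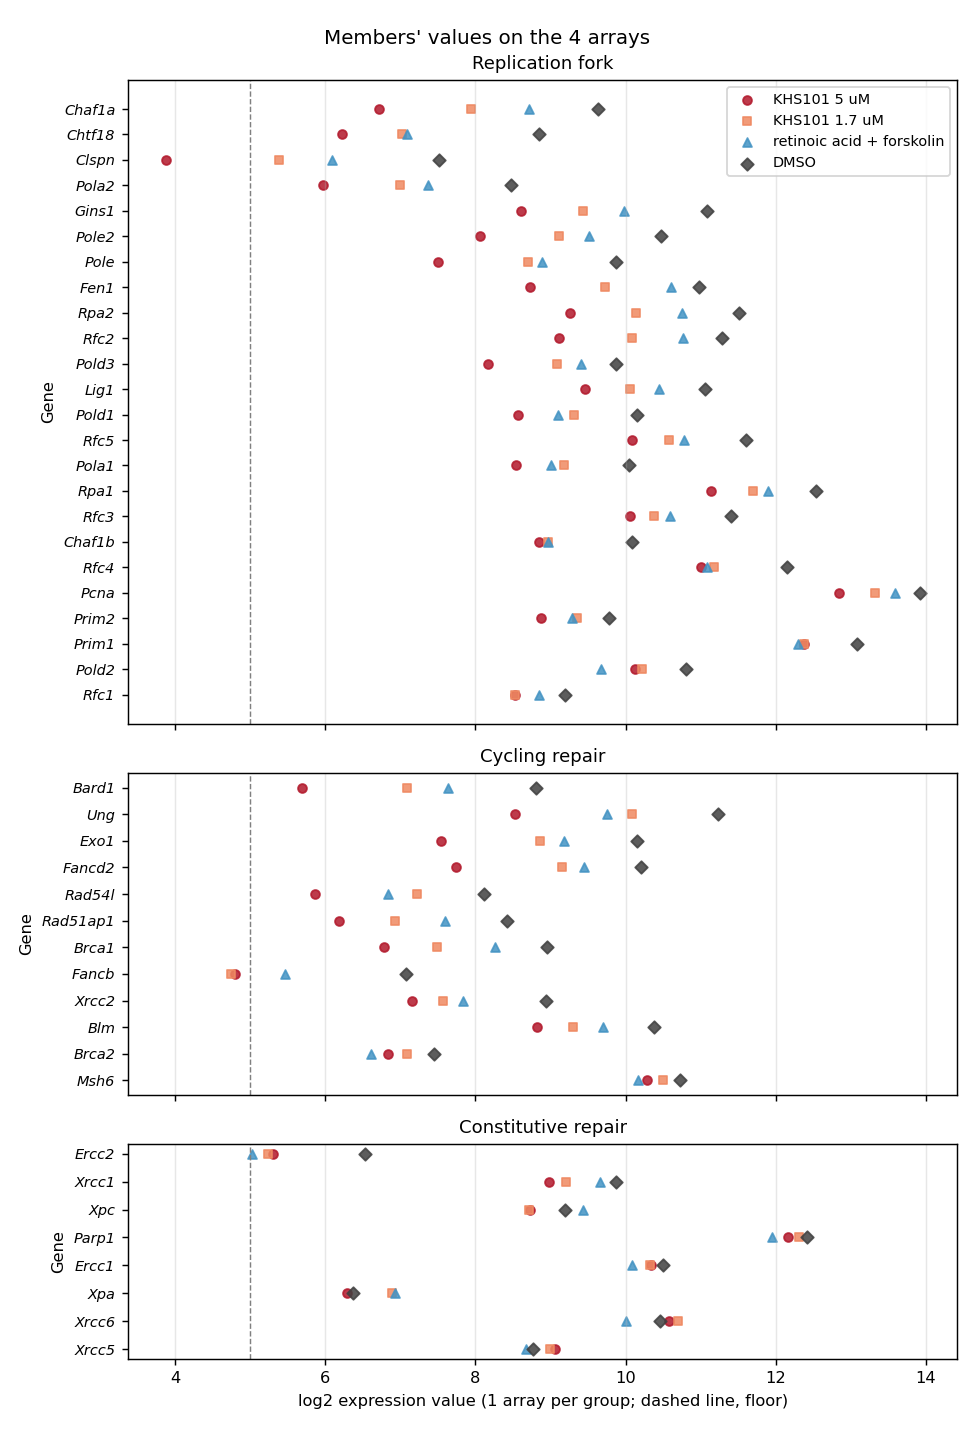
Log2 expression value (horizontal axis) of each of the 44 measured members, by class, with 1 symbol for each array; the dashed line marks the floor of log2 = 5. In the fork and cycling repair panels the DMSO symbol is the rightmost for every gene, while in the constitutive repair panel the 4 symbols mostly lie close together.

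The first comparison asked how the members differed between KHS101 at 5 uM and DMSO. Fork and cycling repair genes were lower with KHS101, by 3.03-fold and 4.61-fold at the median, whereas constitutive repair genes had a median log2 difference of -0.21. Of the 44 measured members, 31 were called lower (70.5%), against 8.10% of all measured genes, and 0 were called higher, against 6.16% of all measured genes. The calls were 20 of 24 fork genes, 10 of 12 cycling repair genes and 1 of 8 constitutive repair genes. Among the 42 members above the floor on all 4 arrays 29 were lower. In RNA from whole cultures, fewer dividing cells and less of these RNAs per cell cannot be told apart. The proliferation markers Mki67 and Top2a were lower by 2.39-fold and 2.66-fold with KHS101 at 5 uM, and their part in the members' differences was not tested.

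Among fork members above the floor on both arrays, which leaves out Clspn, the largest differences were those of Chaf1a in chromatin assembly and Chtf18 in clamp loading, while Chaf1b and the 5 Rfc subunits differed less. Chaf1a, the large subunit of the chromatin assembly factor that places histones on new DNA, had values of 6.71 with KHS101 at 5 uM, 7.93 at 1.7 uM and 8.71 with retinoic acid plus forskolin, against 9.63 in DMSO. It was highest in DMSO and lowest at the higher KHS101 concentration, at which it was 7.59-fold lower. Its partner subunit Chaf1b had values of 8.85 with KHS101 at 5 uM, 8.96 at 1.7 uM and 8.97 with retinoic acid plus forskolin, against 10.08 in DMSO. The 3 treated arrays thus lay close together for Chaf1b, and it was 2.35-fold lower with KHS101 at 5 uM. Chtf18, a subunit of the alternative clamp loader that also serves sister chromatid cohesion, had values of 6.22 with KHS101 at 5 uM, 7.02 at 1.7 uM and 7.09 with retinoic acid plus forskolin, against 8.85 in DMSO. It was 6.21-fold lower at 5 uM, and the KHS101 1.7 uM and retinoic acid arrays were almost level. Among the subunits of replication factor C, the main clamp loader, Rfc2 was 4.53-fold lower, Rfc5 2.87-fold, Rfc3 2.54-fold and Rfc4 2.20-fold, while the large subunit Rfc1 differed by -0.66 on the log2 scale and was not called.

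Promoter sequence is shown for Chaf1a, Chtf18, Gins1 and Ung, which are among the largest differences of the fork and cycling repair classes. It is also shown for Parp1 and Xrcc6, constitutive members that were not called in any comparison. The choice did not follow size alone. With KHS101 at 5 uM, Pola2 (-2.50) exceeded Gins1 (-2.49) and Bard1 (-3.12) exceeded Ung (-2.72), and neither Pola2 nor Bard1 is shown. Each stretch is the 120 bases before the annotated start of the gene, 5′ to 3′ on the gene's strand, from RefSeq (GRCr8). Capitals mark CCAAT, read on either strand (ATTGG is its reverse), and the E2F words TTTCCCGC, TTTGGCGC, TTTCGCGC and TTTGCCGC, also on either strand. The stretches lie at chr9:961105-961224 (plus strand) for Chaf1a, chr10:15255562-15255681 (minus) for Chtf18, chr3:160184800-160184919 (plus) for Gins1, chr12:48154046-48154165 (minus) for Ung, chr13:94839364-94839483 (plus) for Parp1 and chr7:115423064-115423183 (plus) for Xrcc6.
Chaf1a: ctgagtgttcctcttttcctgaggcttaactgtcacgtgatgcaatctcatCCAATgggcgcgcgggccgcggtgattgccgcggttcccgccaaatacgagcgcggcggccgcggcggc
Chtf18: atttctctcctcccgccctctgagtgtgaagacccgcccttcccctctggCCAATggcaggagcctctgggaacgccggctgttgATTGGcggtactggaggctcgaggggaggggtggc
Gins1: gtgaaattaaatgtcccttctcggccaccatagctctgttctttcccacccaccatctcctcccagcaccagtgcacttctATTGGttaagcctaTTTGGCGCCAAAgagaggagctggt
Ung: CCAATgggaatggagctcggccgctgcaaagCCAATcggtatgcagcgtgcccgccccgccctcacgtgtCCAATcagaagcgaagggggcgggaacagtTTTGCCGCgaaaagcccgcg
Parp1: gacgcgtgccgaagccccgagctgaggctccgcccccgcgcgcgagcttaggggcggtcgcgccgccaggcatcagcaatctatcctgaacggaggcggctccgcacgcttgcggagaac
Xrcc6: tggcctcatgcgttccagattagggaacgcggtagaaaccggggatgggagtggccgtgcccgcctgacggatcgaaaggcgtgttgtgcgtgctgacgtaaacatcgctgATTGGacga
The Gins1 stretch holds 2 E2F words that overlap on opposite strands and 1 CCAAT. The Ung stretch holds 1 E2F word and 3 CCAAT. Chtf18 shows 2 CCAAT, Chaf1a 1 and Xrcc6 1, without an E2F word in the stretch, and Parp1 shows neither. A match is a description of letters and not evidence of a bound site, and its absence says only that these letters are not in the window.

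The same words were counted over the window of 250 bases before to 50 after the start, for the 44 of 47 members with an entry in the promoter table (Gins2, Fanci and Fanca included, but not Blm, Xrcc2 or Xpa). An E2F word was found in 9 of 25 fork promoters (36.0%), 4 of 12 cycling repair promoters (33.3%) and 0 of 7 constitutive repair promoters. In all 33469 promoters of the table the share was 2.14%, and in the 8132 promoters of genes measured on the arrays it was 4.43%. Among only 7 constitutive promoters, 0 cannot be told from that share. Other genes of these pathways, taken from lists by role, were counted likewise. They held an E2F word in 8 of 19 fork, 4 of 18 cycling repair and 2 of 32 constitutive repair promoters. The fork members with a match were Pola1, Pold3, Pole, Pole2, Rfc3, Rpa2, Lig1, Gins1 and Clspn. The cycling repair members with a match were Bard1, Fancd2, Msh6 and Ung. CCAAT was found in 60.0% of fork and 58.3% of cycling repair member promoters, and in 2 of 7 constitutive ones (28.6%). Its share was 38.5% in promoters of genes measured on the arrays and 37.5% in all promoters. In the other pathway genes the order of the classes differed. There CCAAT was found in 42.1% of fork, 33.3% of cycling repair and 50.0% of constitutive repair promoters. The word TTTGAA, the core of the cell cycle homology region of mitotic genes, was found in 4.00% of fork, 25.0% of cycling repair and 28.6% of constitutive promoters, in 11.2% of promoters of genes measured on the arrays and in 18.3% of all promoters. Of the 13 fork and cycling repair members with an E2F word, 12 were lower with KHS101 at 5 uM, with a median log2 difference of -2.37. Of the 21 without one, 16 were lower, with a median of -1.60. The exception among the 13 was Msh6. The medians lay closer together in the other comparisons with DMSO. With KHS101 at 1.7 uM, 9 of the 13 were lower (median -1.15) and 11 of the 21 (median -1.02). With retinoic acid plus forskolin, 5 of the 13 were lower (median -0.96) and 8 of the 21 (median -0.85). Over all measured genes, with or without an E2F word, 8.10% were lower with KHS101 at 5 uM. The share was 4.27% at 1.7 uM and 3.15% with retinoic acid plus forskolin. The share of calls among all measured genes that hold an E2F word was not computed, and no test of the split was made.

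**Figure D2:**
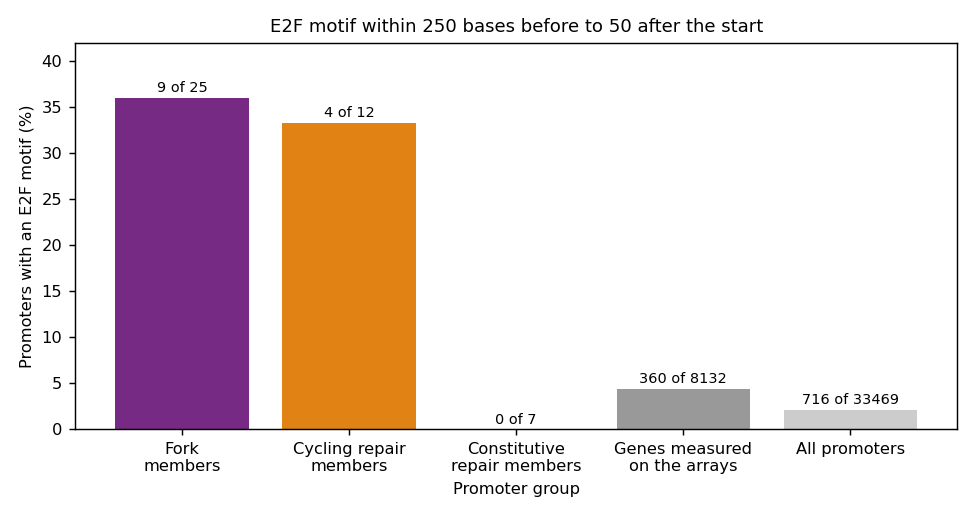
Share of promoters (percent, vertical axis) that hold an E2F word on either strand, for fork, cycling repair and constitutive repair members and for 2 backgrounds, the promoters of genes measured on the arrays and all promoters in the table. E2F words reach 36.0% and 33.3% in the fork and cycling repair classes. The constitutive class has 0 of 7 promoters, against 4.43% for genes measured on the arrays.

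Polymerase genes differed by subunit. Pola2, the regulatory subunit of polymerase alpha, had values of 5.97 with KHS101 at 5 uM, 6.99 at 1.7 uM and 7.37 with retinoic acid plus forskolin, against 8.47 in DMSO. The order was the same as for Chaf1a, and Pola2 was 5.67-fold lower at 5 uM; the catalytic subunit Pola1 was 2.84-fold lower. The primase that shares a complex with them was not called: Prim1 differed by -0.72 and Prim2 by -0.91. Pole2, the second subunit of leading-strand polymerase epsilon, had values of 8.07 with KHS101 at 5 uM, 9.12 at 1.7 uM and 9.51 with retinoic acid plus forskolin, against 10.47 in DMSO. The catalytic Pole had 7.51 with KHS101 at 5 uM, 8.70 at 1.7 uM and 8.88 with retinoic acid plus forskolin, against 9.87 in DMSO. Both epsilon subunits were lowest with KHS101 at 5 uM, by 5.28-fold for Pole2 and 5.16-fold for Pole. In lagging-strand polymerase delta, Pold3 was 3.25-fold and the catalytic Pold1 3.02-fold lower, while Pold2 differed by -0.68 and was not called.

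Genes of the helicase, the checkpoint and Okazaki fragment processing were lower as well. Gins1, a subunit of the GINS complex that joins the helicase, had values of 8.60 with KHS101 at 5 uM, 9.43 at 1.7 uM and 9.97 with retinoic acid plus forskolin, against 11.09 in DMSO. It was 5.61-fold lower at 5 uM. Clspn (claspin), which carries the stalled-fork signal to the checkpoint kinase Chk1, had values of 3.87 with KHS101 at 5 uM, 5.39 at 1.7 uM and 6.09 with retinoic acid plus forskolin, against 7.52 in DMSO. Since the 5 uM array was under the floor, Clspn was at least 5.74-fold lower there. Fen1, the nuclease that trims the flaps of Okazaki fragments, had values of 8.73 with KHS101 at 5 uM, 9.72 at 1.7 uM and 10.61 with retinoic acid plus forskolin, against 10.98 in DMSO. Fen1 was 4.77-fold lower at 5 uM, and its retinoic acid value lay near that of DMSO. Lig1, the ligase that seals the fragments, was 3.03-fold lower. Of the single-strand binding subunits, Rpa2 was 4.75-fold and Rpa1 2.63-fold lower.

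Pcna itself had the smallest difference at 5 uM among the called fork genes. Its values were 12.85 with KHS101 at 5 uM, 13.33 at 1.7 uM and 13.59 with retinoic acid plus forskolin, against 13.92 in DMSO. The 4 arrays stood in the same order as for Chaf1a, but Pcna was 2.10-fold lower at 5 uM and was not called for either other treatment. The remaining uncalled fork genes, Prim1, Prim2, Pold2 and Rfc1, had differences of -0.66 to -0.91.

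Cycling repair genes of homologous recombination, the Fanconi pathway and uracil removal were lower. Bard1, the partner that BRCA1 needs as a ubiquitin ligase, had values of 5.69 with KHS101 at 5 uM, 7.08 at 1.7 uM and 7.64 with retinoic acid plus forskolin, against 8.81 in DMSO. It was 8.72-fold lower at 5 uM, the largest difference among members above the floor on both arrays. Brca1, which promotes recombination at breaks, had values of 6.78 with KHS101 at 5 uM, 7.49 at 1.7 uM and 8.26 with retinoic acid plus forskolin, against 8.95 in DMSO. Brca1 was 4.51-fold lower at 5 uM. Brca2, which also serves homologous recombination, was not called, with values of 6.84 with KHS101 at 5 uM, 7.09 at 1.7 uM and 6.61 with retinoic acid plus forskolin, against 7.45 in DMSO. Rad54l, a motor protein of recombination, was 4.77-fold lower, the recombination cofactor Rad51ap1 4.72-fold, the recombination gene Xrcc2 3.45-fold, and the helicase Blm 2.96-fold.

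Exo1, a nuclease of end resection and mismatch repair, had values of 7.54 with KHS101 at 5 uM, 8.86 at 1.7 uM and 9.18 with retinoic acid plus forskolin, against 10.15 in DMSO, and was 6.08-fold lower at 5 uM. Fancd2, which is loaded onto crosslinked DNA once ubiquitinated, had values of 7.74 with KHS101 at 5 uM, 9.16 at 1.7 uM and 9.45 with retinoic acid plus forskolin, against 10.21 in DMSO, and was 5.55-fold lower at 5 uM. Fancb, a subunit of the ligase that modifies FANCD2, was under the floor on both KHS101 arrays, with values of 4.79 at 5 uM and 4.74 at 1.7 uM, and had 5.47 with retinoic acid plus forskolin, against 7.07 in DMSO. The DMSO array was the highest for all 3 of these genes, and Fancb was at least 4.20-fold lower at both KHS101 concentrations. Ung, the glycosylase that removes uracil from DNA, had values of 8.52 with KHS101 at 5 uM, 10.08 at 1.7 uM and 9.76 with retinoic acid plus forskolin, against 11.24 in DMSO. It was 6.57-fold lower at 5 uM, and here the retinoic acid array was below the KHS101 1.7 uM array. Msh6, a mismatch recognition subunit, was the other cycling repair member not called, with a difference of -0.44.

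Constitutive repair genes stayed nearer to DMSO. The Ku subunits of end joining had differences of 0.29 (Xrcc5) and 0.12 (Xrcc6). Xrcc5 had values of 9.06 with KHS101 at 5 uM, 8.99 at 1.7 uM and 8.67 with retinoic acid plus forskolin, against 8.77 in DMSO. Parp1, the break sensor that makes poly(ADP-ribose), had values of 12.16 with KHS101 at 5 uM, 12.31 at 1.7 uM and 11.96 with retinoic acid plus forskolin, against 12.42 in DMSO. The 4 arrays were close for both genes, and neither was called. Xrcc1, the scaffold of single-strand break repair, differed by -0.89 with KHS101 at 5 uM, the largest difference among the uncalled constitutive genes. In nucleotide excision repair, the damage sensor Xpc differed by -0.47, the nuclease subunit Ercc1 by -0.15 and the scaffold Xpa by -0.08. The 1 called constitutive gene was Ercc2, a helicase subunit of the transcription factor TFIIH, with values of 5.31 with KHS101 at 5 uM, 5.23 at 1.7 uM and 5.02 with retinoic acid plus forskolin, against 6.53 in DMSO. All 3 treated arrays were just above the floor for Ercc2, which was 2.33-fold lower with KHS101 at 5 uM.

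**Figure D3:**
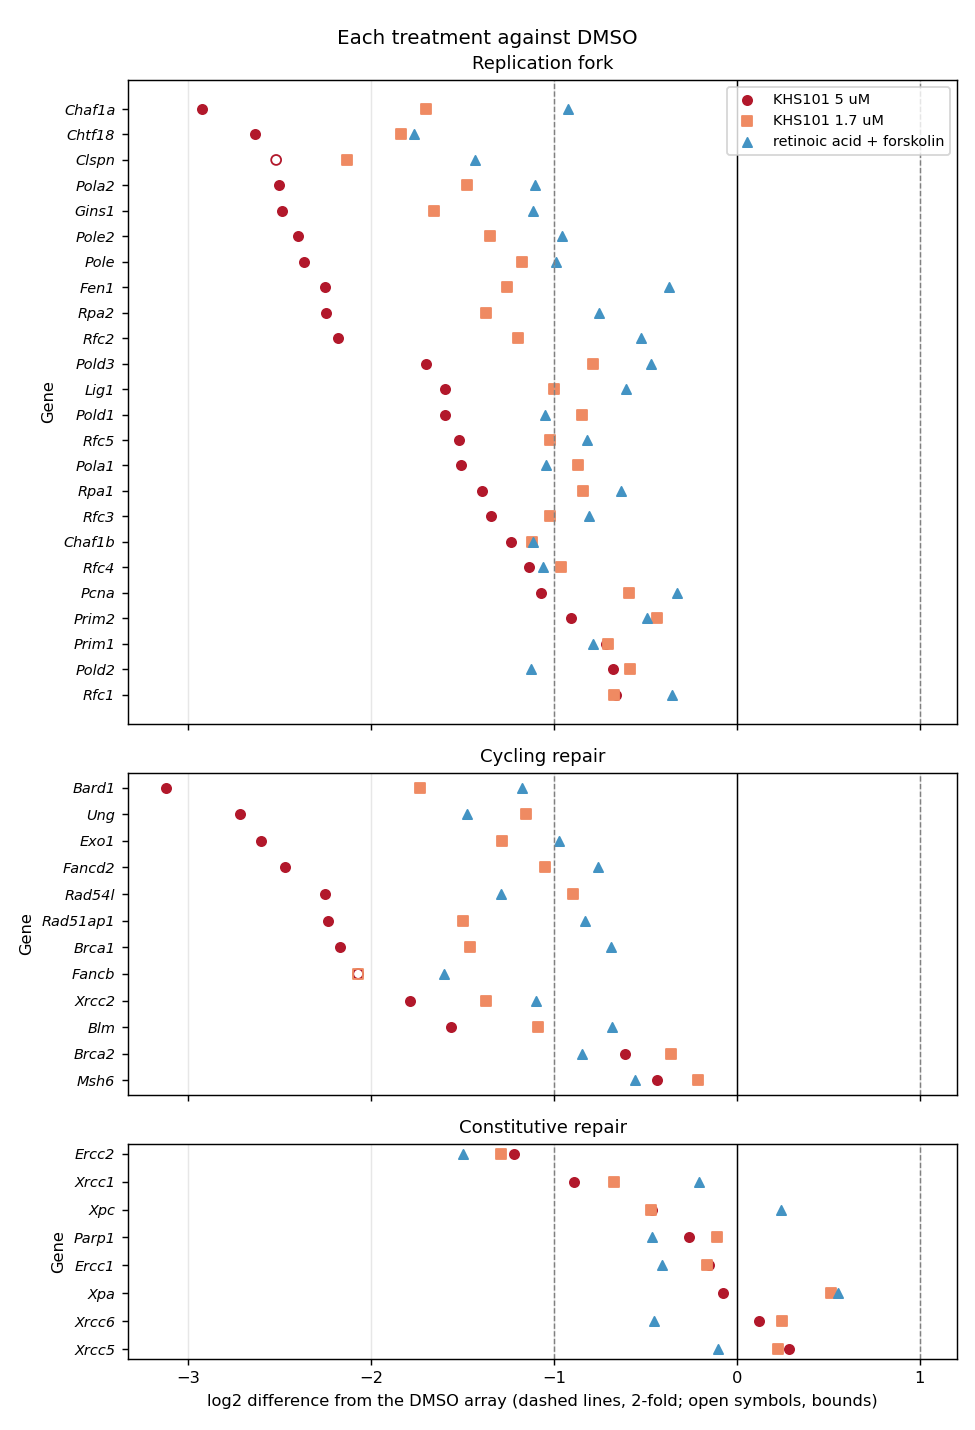
Log2 difference of each measured member from the DMSO array (horizontal axis) for KHS101 at 5 uM, KHS101 at 1.7 uM and retinoic acid plus forskolin, by class; dashed lines mark 2-fold and open symbols are bounds. Fork and cycling repair genes reach -2.92 (Chaf1a) and -3.12 (Bard1) with KHS101 at 5 uM, while among constitutive genes only Ercc2 passes 2-fold.

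The other genes of these pathways, taken from lists by pathway role, were set beside the members. With KHS101 at 5 uM, 13 of 17 measured other fork genes were lower, against 8.10% of all measured genes, with a median of -1.66. The histone chaperone Asf1b, which hands histones to the chromatin assembly factor, was 8.27-fold lower, whereas its paralog Asf1a differed by 0.21. Dscc1, which works with Chtf18 in the alternative clamp loader, was 7.89-fold lower, whereas the third subunit, Chtf8, differed by -0.16. Gins3 was 5.25-fold, the helicase partner Cdc45 4.48-fold and the fork protection gene Timeless 4.34-fold lower. Of 11 measured other cycling repair genes 7 were lower (median -1.07), led by the recombination gene Rad51c at 5.77-fold. Of 28 measured other constitutive repair genes 2 were lower and 2 higher (median -0.23). Both counts were near the shares of all measured genes, 8.10% lower and 6.16% higher. The 2 lower genes were Cetn2, a centrin that binds XPC, by 2.87-fold, and the glycosylase Mpg by 2.13-fold.

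The members were next followed at the lower KHS101 concentration, 1.7 uM, against DMSO. Of the 44 measured members 23 were lower (52.3%), against 4.27% of all measured genes, and 0 were higher, against 4.36% of all measured genes. The calls were 13 of 24 fork, 9 of 12 cycling repair and 1 of 8 constitutive genes, with medians of -1.02, -1.22 and -0.14. Among members above the floor on both arrays, which leaves out Fancb (at least 4.20-fold lower), Clspn had the largest difference, 4.39-fold lower, followed by Chtf18 at 3.57-fold, Bard1 at 3.32-fold, Chaf1a at 3.25-fold and Gins1 at 3.15-fold. Rad51ap1 was 2.83-fold, Pola2 2.78-fold and Brca1 2.75-fold lower. Ercc2 was again the called constitutive gene, 2.45-fold lower. Xpa had the highest difference of any member, 0.51, and was not called. Mki67 was 2.34-fold lower and Top2a 1.82-fold.

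Several fork and cycling repair genes lay close to the 2-fold limit at 1.7 uM. Rfc3 and Rfc5 were just inside it, both with a difference of -1.02, and Fancd2 and Blm had -1.05 and -1.09. Lig1 was just outside with -0.998, and Rfc4 had -0.96. Lig1 and Rfc5 each had a second probe set on the other side of the limit, with -1.07 for Lig1 and -0.92 for Rfc5. The probe sets of Lig1, Rfc5, Pold3 and Rfc1, the members with more than 1 above the floor, did not differ in sign in any comparison with DMSO.

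Retinoic acid plus forskolin was set against DMSO in the same way. Of the 44 measured members 15 were lower (34.1%), against 3.15% of all measured genes, and 0 were higher, against 4.34% of all measured genes. The calls were 9 of 24 fork, 5 of 12 cycling repair and 1 of 8 constitutive genes, with medians of -0.87, -0.91 and -0.31. Chtf18 was 3.40-fold lower, Fancb 3.04-fold, Ercc2 2.83-fold, Ung 2.78-fold and Clspn 2.70-fold. Rad54l was 2.44-fold, Bard1 2.26-fold, Pold2 2.18-fold, Chaf1b 2.17-fold and Gins1 2.16-fold lower. Pold2, which was not called at either KHS101 concentration, had values of 10.12 with KHS101 at 5 uM, 10.22 at 1.7 uM and 9.67 with retinoic acid plus forskolin, against 10.80 in DMSO. The retinoic acid array was thus its lowest. Chaf1a had a difference of -0.92 and Fen1 of -0.37, so neither was called. Pole was just outside the limit with -0.99, and Exo1 and Pole2 had -0.97 and -0.96. Mki67 and Top2a had differences of -0.30 and -0.59, and their part in the members' values was not tested.

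Among the other pathway genes 7 of 17 fork, 3 of 11 cycling repair and 0 of 27 constitutive genes were lower with KHS101 at 1.7 uM, against 4.27% of all measured genes, with medians of -0.92, -0.81 and -0.18. The constitutive gene Nhej1, an end-joining factor, was called higher there. These counts rest on the brightest probe set. A second one of the constitutive gene Rad50, also above the floor, differed by -1.59 with KHS101 at 5 uM. It had -1.26 at 1.7 uM and -1.26 with retinoic acid plus forskolin, where the brightest had -0.97, -0.90 and -0.55 in that order. Both probe sets of Nthl1, given below, were higher with KHS101 than in DMSO, and the second but not the brightest reached 2-fold at both concentrations. With retinoic acid plus forskolin 3 of 17 fork, 1 of 11 cycling repair and 1 of 26 constitutive genes were lower, against 3.15% of all measured genes, with medians of -0.60, -0.39 and -0.19. The fork gene Pold4, a subunit of polymerase delta, was called higher there. Asf1b was 3.51-fold lower with KHS101 at 1.7 uM and 1.62-fold lower with retinoic acid plus forskolin. Gins3 was 2.99-fold lower with KHS101 at 1.7 uM and 2.16-fold lower with retinoic acid plus forskolin. The 3 comparisons above share the DMSO array, so their calls are not independent of each other.

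The KHS101 concentrations were compared directly, without the DMSO array. Of 43 members measured on either array, 9 were lower at 5 uM than at 1.7 uM (20.9%), against 1.73% of all measured genes. They were the fork genes Chaf1a (2.34-fold), Pole (2.28-fold), Pole2 (2.07-fold) and Pola2 (2.04-fold), and the cycling repair genes Ung (2.96-fold), Fancd2 (2.68-fold), Bard1 (2.63-fold), Rad54l (2.56-fold) and Exo1 (2.50-fold). Just outside were Fen1 with -0.99 and Rfc2 with -0.98. The medians were -0.62 for fork, -0.74 for cycling repair and -0.06 for constitutive genes. Some fork genes had almost the same value at both concentrations. Prim1 had 12.37 at 5 uM and 12.38 at 1.7 uM, and Rfc1 had 8.53 at 5 uM and 8.52 at 1.7 uM. Other probe sets of Rfc1 differed by as much as -0.34, and that of Pold3 by -1.42, past the limit, where the probe set used had -0.91. Between these arrays Mki67 differed by -0.03 and Top2a by -0.54.

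**Figure D4:**
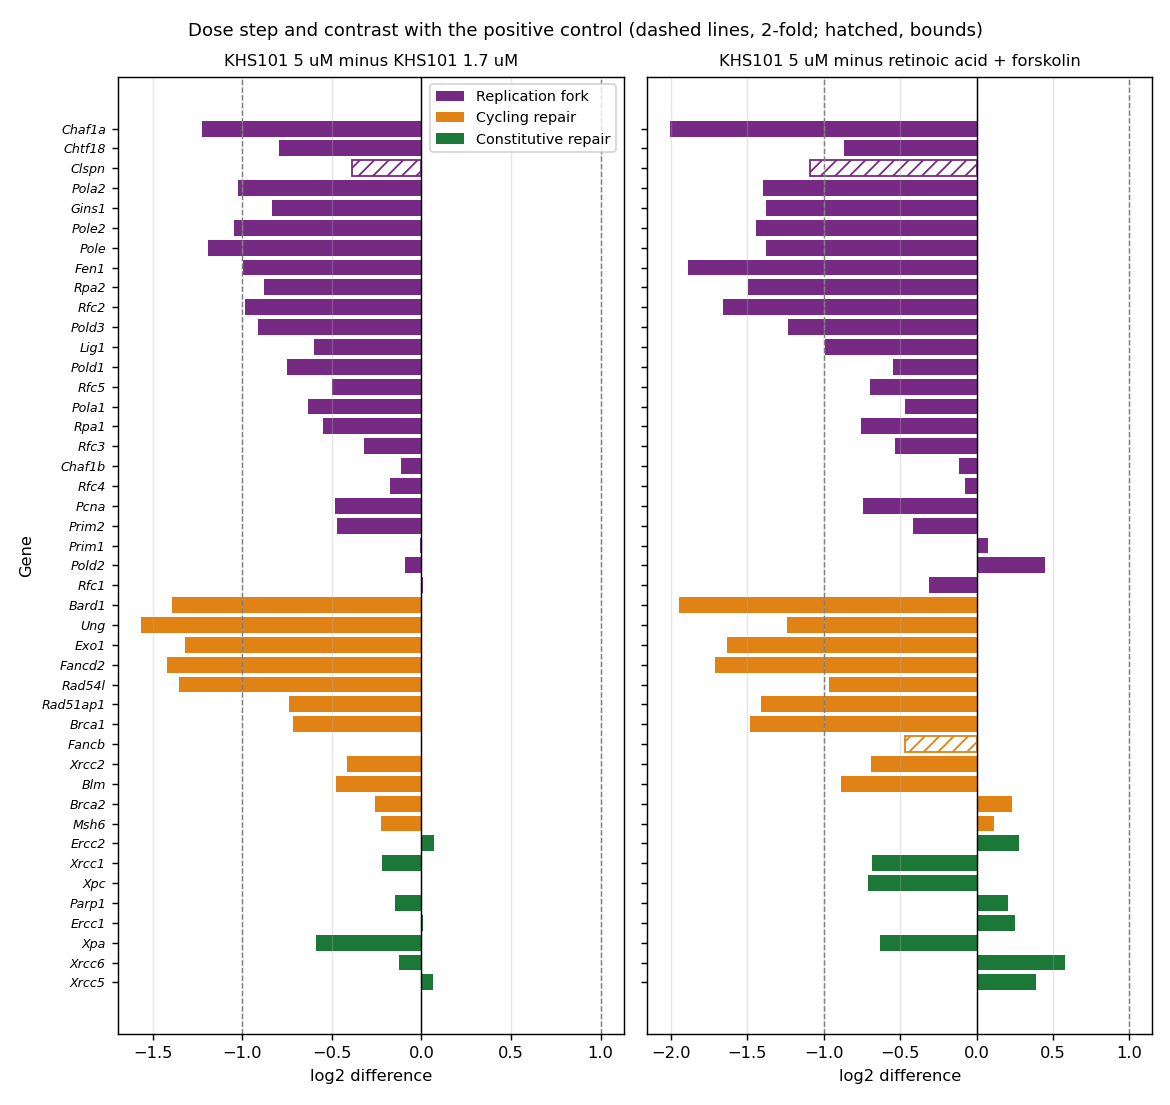
Log2 difference (horizontal axes) of each measured member between KHS101 at 5 uM and 1.7 uM (left panel) and between KHS101 at 5 uM and retinoic acid plus forskolin (right panel), coloured by class; dashed lines mark 2-fold and hatched bars are bounds. Ung has the longest bar on the left (-1.56) and Chaf1a on the right (-2.00), and constitutive genes stay within 2-fold in both panels.

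Against retinoic acid plus forskolin, 16 of 44 members were lower with KHS101 at 5 uM (36.4%), against 10.2% of all measured genes. The calls were 10 fork, 6 cycling repair and 0 constitutive genes, with medians of -0.81, -1.10 and 0.23. Chaf1a was 4.00-fold lower, Bard1 3.86-fold, Fen1 3.69-fold, Fancd2 3.27-fold, Rfc2 3.15-fold and Exo1 3.10-fold, and Clspn was at least 2.12-fold lower. Chaf1b and Rfc4 differed by -0.12 and -0.08, and Pold2 by 0.45. Xrcc6 had the highest difference, 0.58, with a value of 10.58 with KHS101 at 5 uM, against 10.00 with retinoic acid plus forskolin. With KHS101 at 1.7 uM 0 of 44 members were lower than with retinoic acid plus forskolin, against 5.39% of all measured genes, and the median was -0.24. The differences there ran from -0.89 for Fen1 to 0.70 for Xrcc6.

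Fork and cycling repair genes were then set together against constitutive repair genes. The median of the 36 measured cycling members minus that of the 8 constitutive members was -1.72 for KHS101 at 5 uM against DMSO, -0.97 for KHS101 at 1.7 uM and -0.58 for retinoic acid plus forskolin. It was -0.66 between the KHS101 concentrations and -1.15 between KHS101 at 5 uM and retinoic acid plus forskolin. The classes overlapped in every comparison with DMSO: with KHS101 at 5 uM, Msh6, Brca2, Rfc1, Pold2 and Prim1 had smaller differences than the constitutive Xrcc1, and Ercc2 lay among the cycling genes. With 1 array in each group these medians describe the arrays, and no test of the difference between classes was made. The summed level of the 3 oligodendrocyte markers with a probe set (Mbp, Mog and Sox10) was 12.23 with KHS101 at 5 uM, 12.49 at 1.7 uM, 14.17 with retinoic acid plus forskolin and 13.41 in DMSO. That of the 6 progenitor markers was 15.30 with KHS101 at 5 uM, 15.73 at 1.7 uM, 15.97 with retinoic acid plus forskolin and 16.09 in DMSO. Single markers did not all go the way of the sum: against DMSO, Fabp7 was 4.33-fold and Olig2 2.99-fold lower with KHS101 at 5 uM, while Nes had a log2 difference of 0.52. With retinoic acid plus forskolin, the neuronal marker Tubb3 was 2.20-fold and the astrocyte marker S100b 2.08-fold higher than in DMSO. Tubb3 was also higher with KHS101, by 1.55-fold at 5 uM and 1.68-fold at 1.7 uM, short of 2-fold. The progenitor marker Vim was 2.16-fold lower with retinoic acid plus forskolin than in DMSO. Mbp was 2.44-fold higher there and 4.32-fold lower with KHS101 at 5 uM. The part of these markers in the members' differences was not tested.

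**Figure D5:**
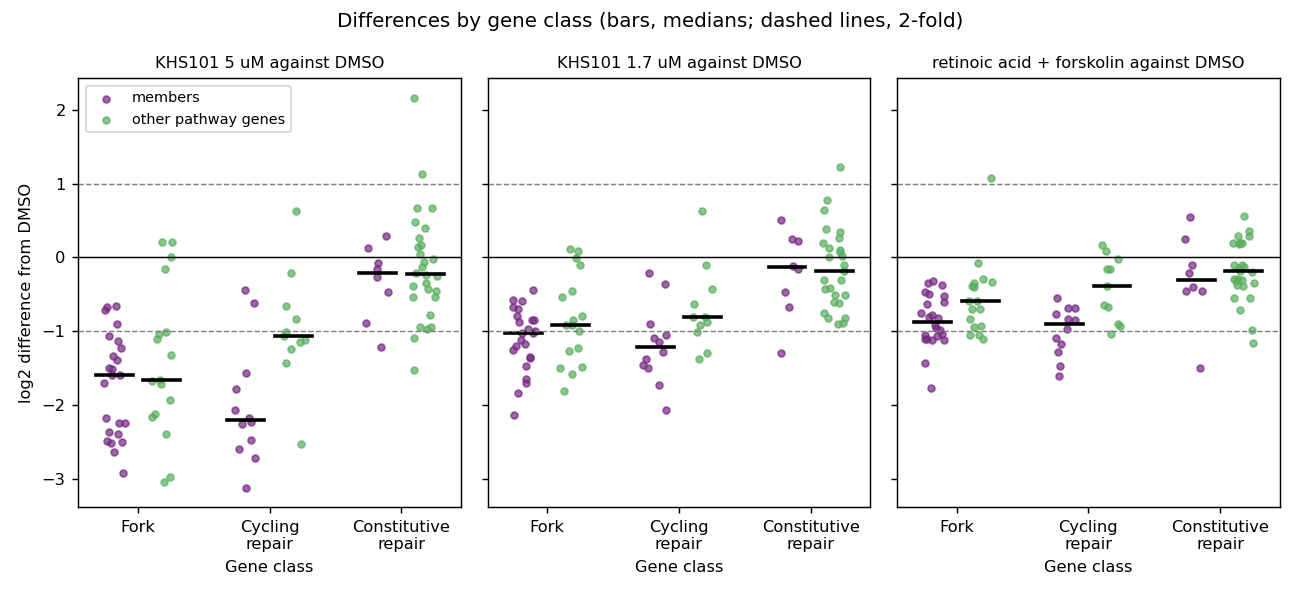
Log2 differences from DMSO (vertical axis) of the measured members (purple) and other pathway genes (green) of each class for the 3 treatments, with 1 point per gene and a bar at each median; dashed lines mark 2-fold. Among members, the fork and cycling repair medians are -1.60 and -2.21 with KHS101 at 5 uM, against -0.21 for constitutive repair, and the gap is smallest with retinoic acid plus forskolin.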

How the data were processed

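RNA of 4 samples of rat hippocampal progenitor cells, 1 per group, was hybridised to Affymetrix rat arrays. The authors deposited log2 values of 31099 probe sets made with GCRMA and R 2.6.2, per the submitters' processing notes; a genome build was not given in the sources used here. That the scale is log2 was judged from their range. Members and gene lists were chosen with earlier results of these data known.

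Symbols came from the platform annotation: 20826 probe sets had 1 gene, 436 had several, 9780 had none and 57 were controls, and only the first kind was used. Where a gene had several probe sets, the brightest on average was used. Values under log2 = 5 were raised to 5, since differences among such low values carry no specific signal. A gene was measured if at least 1 of the 2 arrays compared was above this floor, was called at 2-fold, and is given as a bound ("at least") where 1 array was at the floor. No test was run, as each group has 1 array. The calling code was checked only on a made-up array with known differences and no added noise. That check says nothing about false calls with 1 array in each group.

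Every member could be named; values on all 4 arrays were given mainly for those with large differences, those past 2-fold between the KHS101 concentrations and those whose subunit partners differed. Other pathway genes were named if past 2-fold, at most 8 per class, largest first. Asf1a, Chtf8 and Rad50 were added after their values were seen. Alternatives changed the floor, the probe set rule, the normalization and the threshold. Promoters came from the RefSeq GRCr8 table, in which some genes have more than 1 row. Calculations used Python 3.11.15, numpy 2.4.6, pandas 2.3.3 and matplotlib 3.10.9.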

Additional observations from a re-analysis of the deposited data

How the results depend on the processing

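Recomputing 36 results under the alternatives gave 276 values. Of these, 267 stayed within 1.5 times the reported value, or for medians within 0.1 on the log2 scale, 9 moved further and 0 changed direction. The 36 include the counts of members called higher, which were 0 in every comparison at 2-fold. Replicate spread is lacking, so this criterion took its place. Removing the floor or setting it at log2 = 4 or 6, taking the mean of all probe sets or the dimmest one above the floor, shifting the arrays to the same median, and quantile normalization moved none of the counts, class medians or class gaps past it. Some of these had little room to act. Among measured members, only Lig1, Pold3, Rfc1, Rfc5 and Xrcc5 have more than 1 probe set. The arrays also had nearly equal distributions before any further normalization. All 9 that moved were counts under another threshold, which by construction passes more or fewer genes. The share of all measured genes was taken at 2-fold only. The counts below therefore have no such share beside them and show only how the threshold acts. At 1.5-fold, 30 members were lower with retinoic acid plus forskolin than in DMSO, 21 with KHS101 at 5 uM than at 1.7 uM, and 27 with KHS101 at 5 uM than with retinoic acid plus forskolin, while between KHS101 at 1.7 uM and retinoic acid plus forskolin 8 were lower and 1 was higher. At 3-fold, 6 members were lower with KHS101 at 1.7 uM than in DMSO, 2 with retinoic acid plus forskolin than in DMSO, 0 with KHS101 at 5 uM than at 1.7 uM, and 6 with KHS101 at 5 uM than with retinoic acid plus forskolin. No paired analysis was possible because each group has 1 array. A single DMSO array enters 3 comparisons, and signal near the floor limits Ercc2, Clspn and Fancb.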

Other observations

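A few repair and fork genes outside the member list were higher with KHS101 or had opposite signs between treatments. Nhej1, the end-joining factor XLF, had values of 7.16 with KHS101 at 5 uM, 6.22 at 1.7 uM and 3.23 with retinoic acid plus forskolin, against 3.54 in DMSO, so that it was above the floor on the KHS101 arrays alone. It was at least 4.47-fold higher at 5 uM and at least 2.33-fold higher at 1.7 uM than in DMSO. Gtf2h1, a core subunit of TFIIH, had values of 11.16 with KHS101 at 5 uM, 10.68 at 1.7 uM and 10.39 with retinoic acid plus forskolin, against 10.03 in DMSO, and was 2.19-fold higher at 5 uM. Its second probe set differed by 1.55 in the same direction. Ercc2, another TFIIH subunit, was lower on the same arrays.

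Pold4, the small subunit of polymerase delta, had values of 5.88 with KHS101 at 5 uM, 7.10 at 1.7 uM and 8.06 with retinoic acid plus forskolin, against 6.98 in DMSO. It was 2.15-fold lower with KHS101 at 5 uM and 2.11-fold higher with retinoic acid plus forskolin. Nthl1, a glycosylase of base excision repair, had values of 8.52 with KHS101 at 5 uM, 8.63 at 1.7 uM and 6.68 with retinoic acid plus forskolin, against 7.85 in DMSO. Its differences from DMSO were 0.67 with KHS101 at 5 uM, 0.77 at 1.7 uM and -1.17 with retinoic acid plus forskolin. Its second probe set had 1.00 with KHS101 at 5 uM, 1.18 at 1.7 uM and -0.53 with retinoic acid plus forskolin. Whether these differences between treatments exceed the spread between cultures was not tested, as each group has 1 array.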
